A study of Mus musculus with 5 samples.

Results

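Translation initiation and elongation factors are the soluble proteins that load messenger RNA (mRNA) onto the ribosome, find the start codon and move the ribosome along the coding sequence. Here they are the genes whose only symbol in the array's annotation began with Eif or Eef and a digit, and where a gene had several probe sets the brightest on average over all arrays stood for it. The rule found 52 of the 12393 genes measured, with 118 probe sets among them. The rule used no measured difference between the groups, but its mean covered 3 tumour and 2 wild-type arrays. A probe set high in tumours was thus more easily chosen. On the wild-type arrays alone, another probe set was brighter for Eef1akmt1 (7.42 against 7.26) and Eif4e3 (8.54 against 8.46). Those other probe sets changed by -0.01 and 0.03, where the chosen ones changed by 1.16 and 0.79.

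Initiation starts when eIF2, loaded with GTP and initiator transfer RNA, joins the small ribosomal subunit together with eIF1A and the large scaffold eIF3. The mRNA is brought in through its cap by eIF4F, which joins the cap-binding protein eIF4E, the scaffold eIF4G and the RNA helicase eIF4A. Cells restrain the pathway by phosphorylating eIF2, which traps its exchange factor eIF2B, and through 4E-BP proteins that hold eIF4E away from eIF4G until the kinase mTORC1 releases them. In elongation, eEF1A delivers aminoacyl-transfer RNAs and eEF2 moves the ribosome by a codon. Translation capacity is a known point of control in intestinal tumours that lack functional Apc.

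Gene expression was measured on 5 Affymetrix arrays, of which 3 held intestinal tumours of Apc1638N mice (numbered 16, 18 and 2 in the labels) and 2 held the normal intestine of C57Bl6/J wild types (numbered 36 and 62). Apc1638N is a germline allele that truncates Apc, so every cell of the tumour-bearing mice carries it and the normal epithelium compared here comes from other animals. All mice were males of 8 months, and no treatment is given in the labels. Epithelium was collected by laser capture microdissection, and the values are log2 signals of probe sets, so that a difference of 1 is a 2-fold difference. Separate animals for the arrays are not stated in the labels, so the p-values reflect only how far these samples differ, which may be technical. In such tissue samples, a change in the cells captured and a change in RNA per cell cannot be told apart.

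Array medians lay between 6.81 and 6.87. Tumour arrays correlated with each other at 0.983 to 0.991 across probe sets and with the wild-type arrays at 0.910 to 0.937. Epithelial markers were high in both groups, with a mean of 8 markers between 11.08 and 11.57 on the tumour arrays and between 11.13 and 11.29 on the wild-type arrays. The mean of 7 fibroblast and matrix markers was 7.86 to 9.33 in tumours and 6.93 to 7.26 in wild type, with 1 of 7 (Dcn) called higher. The mean of 5 T cell markers was lower in tumours (6.52 to 6.67 against 7.42 to 7.68, with 2 of 5 called lower), as was that of 4 B and plasma cell markers (8.30 to 8.66 against 9.55 to 10.07, with 2 of 4 called lower). The mean of 5 myeloid markers was 7.24 to 7.73 in tumours and 6.92 to 7.13 in wild type, with 0 of 5 called and Lyz2 just short of the threshold at a change of 1.67 (adjusted p = 0.0502 in limma). Of 8 epithelial markers Krt18 and Krt19 were called higher and Vil1 lower, of 4 smooth muscle markers 1 was called higher, and no endothelial or red blood cell marker was called. The difference between 3′ and 5′ beta-actin control signals, a sign of RNA integrity and labelling, was larger in tumours by 1.24, and that of Gapdh by 0.80. The part of these differences in the results for factor genes was not tested.

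Factor genes were called higher in tumour epithelium far more often than lower. At an adjusted p under 0.05 in limma, 23 of 52 (44.2%) rose, 1 fell and 28 did not pass, where 11.3% of all genes rose, 10.5% fell and 21.7% passed in either direction. The median log2 change of the 52 genes was 0.41, against 0.00398 for all genes tested. Rises were moderate, between 0.33 and 1.62 on the log2 scale (1.26-fold to 3.08-fold), and 5 of them were at least 2-fold, which held for 3.45% of all genes. The single fall was also at least 2-fold, which held for 4.49% of all genes. Tumour values lay above both wild-type values for 34 genes, with 27.0% over all genes, and below both for 4, with 23.7% over all genes. Set against the mean of the wild-type arrays, the median of the 52 genes was 0.40 higher in tumour 16, 0.42 in tumour 18 and 0.36 in tumour 2. The factor genes were also brighter than most, with 37 of 52 above the 75th percentile of mean signal, a split chosen after seeing the data. Of those 37 genes 21 rose, and among all genes above that percentile 20.1% did. With genes below the 40th percentile left out, 23 of 50 factor genes rose and 16.8% of all genes.

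**Figure D1:**
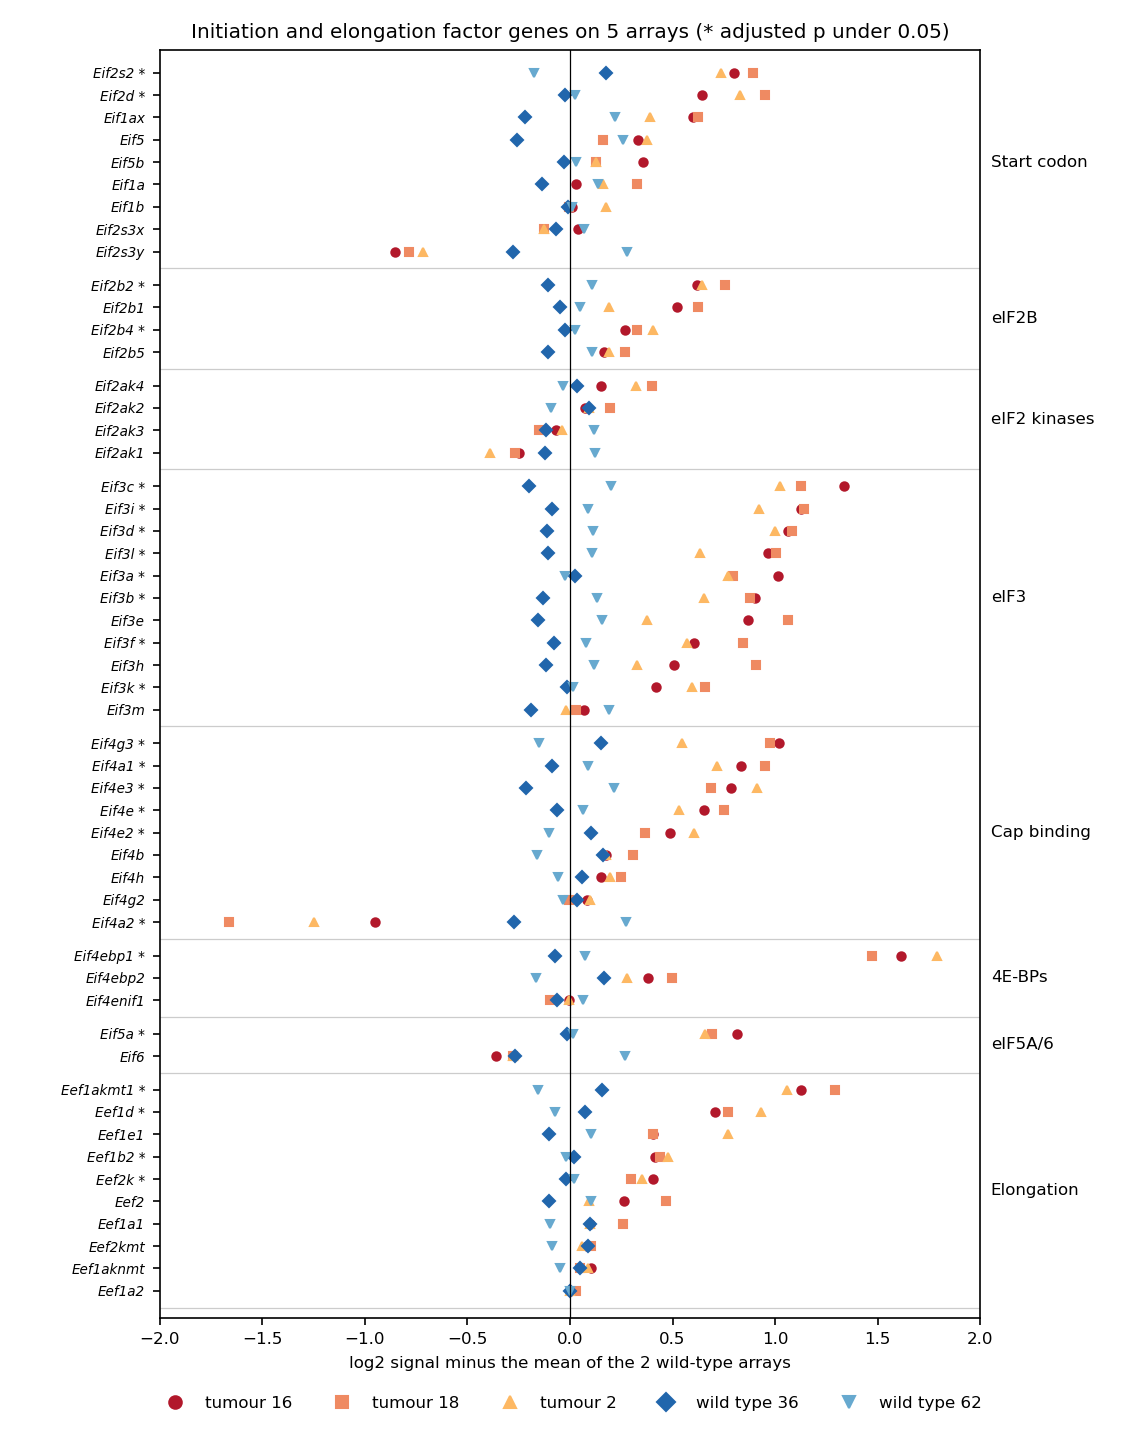
Log2 signal of each of the 52 factor genes on each array, minus the mean of the 2 wild-type arrays, grouped by role and sorted by change, with an asterisk for genes at an adjusted p under 0.05 in limma. Most tumour symbols lie to the right of 0, most clearly among the eIF3 subunits, while Eif4a2 and Eif2s3y lie to the left.

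The number of calls depended on single arrays. Of the 52 genes, 9 were called higher without tumour 16 (2.90% of all genes), 12 without tumour 18 (4.28%), 21 without tumour 2 (10.4%), 4 without wild type 36 (1.96%) and 0 without wild type 62 (0%). Without wild type 62, the median change of the 52 genes was 0.40, against 0.00346 for all genes. With probe sets that hold tied values within a group also left out, the counts in the same order were 14 of 51 genes (6.85% of all genes), 19 (8.27%), 24 (14.6%), 12 (5.42%) and 12 (4.98%). In those 5 fits 9 of the 23 genes kept their call throughout. Those 9 were Eif4ebp1, Eif3c, Eif3d, Eif3i, Eif4a1, Eif5a, Eif2b2, Eef1b2 and Eef1akmt1. Of them Eif4a1 and Eef1akmt1 lost their call, and Eef1akmt1 its direction, when probe sets that can match several transcripts were left out. Eif5a, Eif2b2 and Eef1b2 had no probe set left in that setting and could not be checked there.

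**Figure D2:**
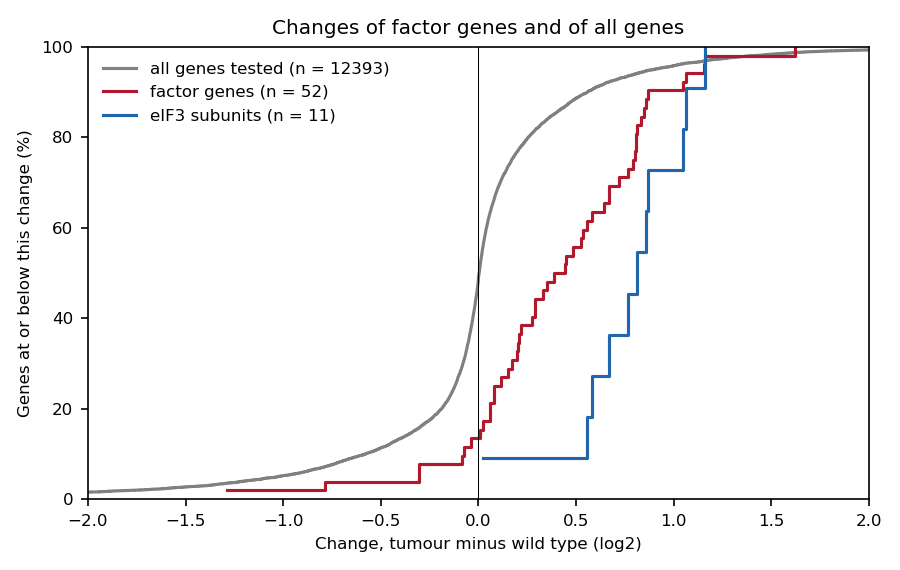
Cumulative share of genes (percent) at or below each log2 change, tumour minus wild type, for all 12393 genes, the 52 factor genes and the 11 eIF3 subunits; changes beyond -2 and 2 are not drawn. The curve of all genes is centred on 0, that of the factor genes on 0.41 and that of the eIF3 subunits on 0.81.

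Among the subunits of eIF3, the largest initiation factor, most passed the test. Of 11 measured subunits 8 rose, 0 fell (0 also at an unadjusted p under 0.05 in limma) and 3 did not pass, with a median change of 0.81. For 10 of the 11 every tumour value was above both wild-type values, with 27.0% over all genes. Of all genes 11.3% rose. The largest rise was that of Eif3c, a core subunit, with 11.15, 10.94 and 10.84 in tumours 16, 18 and 2 and 9.62 and 10.01 in wild types 36 and 62. All tumours were above both wild types, and the change was 1.16 (SE 0.16, adjusted p = 0.0175 in limma). Eif3i, another core subunit, read 11.15, 11.16 and 10.95 in tumours and 9.94 and 10.11 in wild type, a rise of 1.06 (SE 0.10, adjusted p = 0.00845 in limma). Eif3d, the subunit that can itself bind the cap, read 9.41, 9.43 and 9.35 in tumours and 8.24 and 8.46 in wild type. Its tumour values spanned less than 0.1, and it rose by 1.05 (SE 0.08, adjusted p = 0.0063 in limma).

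The remaining called subunits had smaller rises. The values of Eif3a, the scaffold subunit, were 9.86, 9.64 and 9.61 in tumours and 8.87 and 8.82 in wild type, a rise of 0.86 (SE 0.09). Eif3b, a core subunit that binds RNA, had 10.65, 10.62 and 10.40 in tumours and 9.62 and 9.88 in wild type (rise 0.81, SE 0.12). Eif3l had 9.57, 9.61 and 9.24 in tumours and 8.50 and 8.71 in wild type (rise 0.87, SE 0.15). In each of these 3 genes every tumour was above both wild types. A dimmer probe set of Eif3l had every tumour below both wild types (-0.14, SE 0.05, adjusted p = 0.140 over probe sets in limma). Another dim probe set of Eif3l rose by 0.37. Eif3f had 11.11, 11.35 and 11.08 in tumours and 10.43 and 10.59 in wild type (rise 0.67, SE 0.11), and Eif3k rose by 0.56 (SE 0.08). In limma these 5 genes had adjusted p-values from 0.0103 to 0.0254.

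Eif3e, Eif3h and Eif3m did not pass. For Eif3e and Eif3h the tumours were above both wild types, with changes of 0.77 (SE 0.24) and 0.58 (SE 0.20) and adjusted p-values of 0.102 and 0.122 in limma, and their tumour SDs of 0.35 and 0.30 (n = 3) were the largest of the family. Eif3m differed by 0.03 (SE 0.13). Tumour 2 had the lowest tumour value for 10 of the 11 subunits, and wild type 62 was above wild type 36 for 10 of the 11. Called subunits numbered 4 without tumour 16, 4 without tumour 18, 8 without tumour 2, 1 without wild type 36 and 0 without wild type 62. With tied probe sets also left out these counts were 5, 7, 9, 4 and 4. No eIF3 subunit was called lower in any of these fits.

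The cap-binding complex moved unevenly. Of 9 measured genes 5 rose, 1 fell and 3 did not pass, with a median change of 0.49. Of all genes 11.3% rose and 10.5% fell. Eif4e, the cap-binding protein, had 8.74, 8.84 and 8.62 in tumours 16, 18 and 2 and 8.02 and 8.15 in wild types 36 and 62. The groups were well apart, and Eif4e rose by 0.64 (SE 0.08, adjusted p = 0.0153 in limma). Its relatives Eif4e2, a cap-binding protein that represses translation, and Eif4e3 rose by 0.49 (SE 0.10) and 0.79 (SE 0.15). Of the scaffolds, Eif4g3 had 8.85, 8.81 and 8.38 in tumours and 7.99 and 7.68 in wild type and rose by 0.85 (SE 0.19, adjusted p = 0.0485 in limma). Eif4g2, which lacks the eIF4E-binding site and serves cap-independent initiation, had 11.31, 11.23 and 11.33 in tumours and 11.27 and 11.20 in wild type. Its groups overlapped, and the change was 0.06 (SE 0.05, adjusted p = 0.473 in limma). The call of Eif4g3 was lost without tumour 16 (adjusted p = 0.152), tumour 18 (0.151), wild type 36 (0.132) or wild type 62 (0.214), and that of Eif4e without tumour 16 (0.0749), wild type 36 (0.0915) or wild type 62 (0.0811). Eif4e2 and Eif4e3 lost their calls without any single array, with adjusted p-values in limma up to 0.170 and 0.126. When the probe sets of each gene were averaged, their changes were 0.10 and 0.41 and did not pass, and Eif4e2 also narrowly missed the threshold under trend and robust eBayes, and its change was 0.03 without probe sets that can match several transcripts. In that last setting Eif4g3 had an adjusted p of 0.0558.

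The helicase paralogs Eif4a1 and Eif4a2 went in opposite directions. Eif4a1 had 10.70, 10.81 and 10.58 in tumours 16, 18 and 2 and 9.77 and 9.95 in wild types 36 and 62, so that every tumour was higher. It rose by 0.83 (SE 0.10, adjusted p = 0.0122 in limma). Eif4a2, which encodes a closely related helicase, had 8.46, 7.75 and 8.16 in tumours and 9.13 and 9.68 in wild type, so that every tumour was lower. It fell by 1.29 (SE 0.28, adjusted p = 0.0454 in limma) and was the only factor gene called lower. The change of Eif4a1 exceeded that of Eif4a2 by 2.12, with an exact two-sided permutation p of 0.1, the smallest that 5 arrays allow. The call of Eif4a2 was near the threshold and was lost without tumour 16 (adjusted p = 0.0890), tumour 18 (0.106), tumour 2 (0.112), wild type 36 (0.112) or wild type 62 (0.195), with changes between -1.56 and -1.01. With all arrays kept it was also lost under array weights (adjusted p = 0.0753) and without probe sets that can match several transcripts (0.0523). Eif4a1 lost its call without tumour 16 (0.0658), wild type 36 (0.0753) or wild type 62 (0.0697), and without probe sets that can match several transcripts, where another probe set gave 0.43 (adjusted p = 0.269). The helicase cofactors Eif4b and Eif4h did not pass, at 0.22 (SE 0.12) and 0.20 (SE 0.06). The values of Eif4b, 9.25, 9.38 and 9.25 in tumours and 9.24 and 8.91 in wild type, barely separated.

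**Figure D3:**
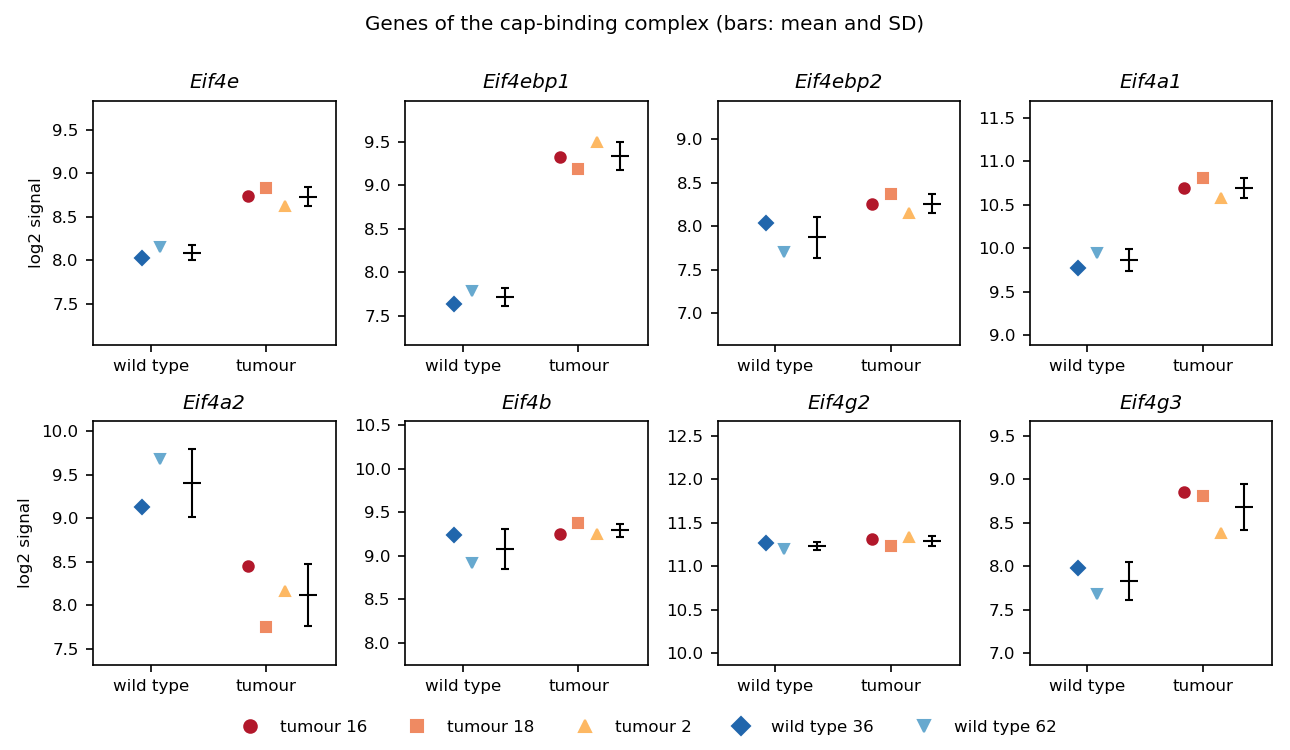
Log2 signal of 8 genes of cap binding on the 2 wild-type and 3 tumour arrays, 1 panel per gene with axes of equal span, and bars for mean and SD of each group. Eif4e, Eif4ebp1, Eif4a1 and Eif4g3 are higher in every tumour, Eif4a2 is lower in every tumour, and the groups overlap for Eif4g2.

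Among the repressors that bind eIF4E, Eif4ebp1 had the largest change of all 52 factor genes. It had 9.33, 9.19 and 9.50 in tumours 16, 18 and 2 and 7.64 and 7.79 in wild types 36 and 62. The lowest tumour was far above the highest wild type, and the rise was 1.62 (SE 0.11, 3.08-fold, adjusted p = 0.00561 in limma). Its call was lost only without wild type 36 (adjusted p = 0.0529) or wild type 62 (0.0579), and its change stayed from 1.54 to 1.70 when any array was left out. Eif4ebp2, the second repressor of the family, had 8.26, 8.37 and 8.15 in tumours and 8.04 and 7.71 in wild type. Its tumours were above both wild types, but its change of 0.39 (SE 0.13, adjusted p = 0.113 in limma) did not pass. The change of Eif4ebp1 exceeded that of Eif4ebp2 by 1.24 and that of its target Eif4e by 0.98, each with an exact permutation p of 0.1. Eif4enif1, which carries eIF4E into the nucleus, differed by -0.04 (SE 0.06).

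Factors that set the start codon were less uniform. Of 9 measured genes 2 rose, 0 fell (1 at an unadjusted p under 0.05 in limma) and 7 did not pass, with a median change of 0.20. Over all genes 11.3% rose and 21.7% were called in either direction. Eif2s2, the beta subunit of eIF2, had 10.16, 10.26 and 10.10 in tumours 16, 18 and 2 and 9.54 and 9.19 in wild types 36 and 62. It was higher in every tumour and rose by 0.81 (SE 0.13, adjusted p = 0.0210 in limma). The call was lost without tumour 16 (adjusted p = 0.0905), tumour 18 (0.0816), tumour 2 (0.0519) or wild type 62 (0.0699), and without probe sets that can match several transcripts (change 0.61, adjusted p = 0.0942). Eif2d, which can deliver initiator transfer RNA without eIF2, rose by the same amount (0.81, SE 0.10), and its call was lost without wild type 36 (adjusted p = 0.0950) or wild type 62 (0.0954). Without probe sets that can match several transcripts its change was 0.05 and did not pass. That value came from a probe set with 5.60 in every tumour and wild type 36 and 5.50 in wild type 62. These values lay under the 25th percentile of all probe sets (6.03 to 6.06). The brighter probe sets of Eif2d rose by 0.81, 0.38 and 0.43. The gamma subunit of eIF2 is encoded on both sex chromosomes, and neither copy passed. Eif2s3y, the Y-linked copy, had 6.78, 6.84 and 6.91 in tumours and 7.35 and 7.91 in wild type, a change of -0.78 (SE 0.18) that missed the threshold (adjusted p = 0.0509 in limma). Eif2s3x overlapped between groups (-0.07, SE 0.08), although another of its probe sets rose by 0.44 (SE 0.08, adjusted p = 0.0331 over probe sets in limma). The changes of the copies differed by 0.71 with an exact permutation p of 0.1. The call of Eif2s3y was made under 7 of 8 other settings that kept all arrays.

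The other start codon factors did not pass. Eif1ax, the X-linked copy of eIF1A, had 9.68, 9.71 and 9.47 in tumours and 8.86 and 9.30 in wild type (change 0.54, SE 0.16, adjusted p = 0.0923 in limma). Eif1a had 8.42, 8.72 and 8.55 in tumours and 8.25 and 8.53 in wild type, with overlapping groups (0.17, SE 0.13). Eif5b, the GTPase that joins the ribosomal subunits, had 7.79, 7.57 and 7.57 in tumours and 7.41 and 7.47 in wild type (0.20, SE 0.09). Eif1b and Eif5, which help to recognise the start codon, differed by 0.06 (SE 0.07) and 0.29 (SE 0.18).

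The exchange factor eIF2B recharges eIF2 with GTP, and its 4 measured subunits were all higher in every tumour than in both wild types. Over all genes this held for 27.0%. Eif2b2 rose by 0.67 (SE 0.09, adjusted p = 0.0151 in limma) and Eif2b4 by 0.33 (SE 0.05, adjusted p = 0.0224 in limma). Eif2b1 and Eif2b5, the catalytic subunit, differed by 0.45 (SE 0.15) and 0.21 (SE 0.08) without passing. Both calls held without tumour 2 and were lost without any of the other arrays, with adjusted p-values in limma up to 0.0658 for Eif2b2 and 0.109 for Eif2b4.

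None of the 4 kinases that phosphorylate eIF2 passed in limma, and at an unadjusted p under 0.05 there was 1 higher and 1 lower. Eif2ak1, the kinase that senses haem, had 8.80, 8.78 and 8.66 in tumours 16, 18 and 2 and 8.93 and 9.17 in wild types 36 and 62, a change of -0.30 (SE 0.10, adjusted p = 0.0992 in limma). Its tumours were all below both wild types. Eif2ak4, the kinase that senses amino acid shortage, had 5.50, 5.76 and 5.67 in tumours and 5.39 and 5.32 in wild type (0.29, SE 0.09, adjusted p = 0.0927 in limma), and its signal was low, under the 25th percentile of all probe sets (6.03 to 6.06) in each sample. Eif2ak2, which binds double-stranded RNA, had 6.98, 7.10 and 7.00 in tumours and 7.00 and 6.82 in wild type. Eif2ak3, the kinase of the endoplasmic reticulum, had 7.19, 7.11 and 7.22 in tumours and 7.14 and 7.38 in wild type. Both overlapped between groups, with changes of 0.12 (SE 0.08) and -0.09 (SE 0.09).

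Eif5a, a factor that carries the modified amino acid hypusine and helps the ribosome through difficult peptide bonds, had 12.64, 12.52 and 12.49 in tumours and 11.81 and 11.84 in wild type. The groups were far apart relative to their SDs of 0.08 (n = 3) and 0.02 (n = 2), and the rise was 0.72 (SE 0.06, adjusted p = 0.00681 in limma). Without wild type 36 or 62 the adjusted p was 0.0571 and 0.0642. Eif6, which keeps the ribosomal subunits apart, had 10.72, 10.80 and 10.80 in tumours and 10.81 and 11.35 in wild type. The highest tumour and the lower wild type were almost equal, and the change of -0.31 (SE 0.17, adjusted p = 0.292 in limma) did not pass. Without wild type 36, the nearer of the wild types, Eif6 was called lower (-0.57, adjusted p = 0.0482 in limma).

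Elongation genes gave both calls and near-equal groups. Of 10 measured genes 4 rose, 0 fell (0 also at an unadjusted p under 0.05 in limma) and 6 did not pass. The median change was 0.31, and 11.3% of all genes rose. The exchange factors that recharge eEF1A rose, namely Eef1d by 0.80 (SE 0.09, adjusted p = 0.0115 in limma) and Eef1b2 by 0.44 (SE 0.04, adjusted p = 0.00752 in limma). Eef1b2 lost its call only without wild type 62 (adjusted p = 0.0578), and Eef1d without tumour 18 (0.0531), wild type 36 (0.0634) or wild type 62 (0.0834). The factors that act on the ribosome itself did not pass. Eef1a1 had 13.17, 13.33 and 13.17 in tumours 16, 18 and 2 and 13.17 and 12.97 in wild types 36 and 62, so that the groups overlapped (0.15, SE 0.09, adjusted p = 0.309 in limma). Eef2 had 11.10, 11.30 and 10.93 in tumours and 10.73 and 10.94 in wild type (0.27, SE 0.14, adjusted p = 0.245 in limma), with tumour 2 inside the wild-type range. The change of Eef1d exceeded that of Eef1a1 by 0.65, with an exact permutation p of 0.1. Over the 6 pairs of factor genes compared in this way, the Benjamini-Hochberg adjusted p was 0.12 for 5 pairs and 0.2 for Eif4g3 and Eif4g2.

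Eef2k, the kinase that inhibits eEF2, rose modestly, with 6.84, 6.73 and 6.79 in tumours and 6.42 and 6.45 in wild type (0.35, SE 0.05, adjusted p = 0.0153 in limma). Eef1akmt1, a lysine methyltransferase of eEF1A, had 8.38, 8.55 and 8.31 in tumours and 7.41 and 7.10 in wild type and rose by 1.16 (SE 0.13, adjusted p = 0.0108 in limma). Without probe sets that can match several transcripts, Eef1akmt1 was read from a probe set with equal wild-type values (7.42). A dimmer one that also remained rose by 0.36 (adjusted p = 0.0168 over probe sets in limma). In that setting Eef1akmt1 turned direction (-0.01) and lost its call (adjusted p = 0.895 in limma). Both lost their calls without tumour 16 (adjusted p = 0.0577 and 0.0604) or wild type 62 (0.0796 and 0.0678), and Eef2k also without wild type 36 (0.0791). Eef1e1, a component of the multi-synthetase complex despite its name, had 7.46, 7.46 and 7.82 in tumours and 6.95 and 7.16 in wild type (0.53, SE 0.15, adjusted p = 0.0780 in limma). Eef1a2, the form of muscle and neurons, had 7.70 on 4 of the arrays and 7.73 in tumour 18, and it showed no call (0.01, SE 0.03). The methyltransferase genes Eef1aknmt and Eef2kmt differed by 0.08 (SE 0.04) and 0.08 (SE 0.06). Identical values on 2 or more arrays occurred in 10 of the 52 genes, Eef1a1 and Eef1a2 among them.

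Several factor mRNAs carry a terminal oligopyrimidine tract, a run of C and T at the very start of the transcript through which mTORC1 controls their translation. Of 8 measured members of that list, 3 rose (Eef1b2, Eef1d and Eif3f), 0 fell (0 also at an unadjusted p under 0.05 in limma) and 5 did not pass, with a median change of 0.51. Among the other 44 factor genes 20 rose and 1 fell, with a median of 0.37. Of all genes 11.3% rose and 10.5% fell. The arrays measure mRNA level and carry no value of translation.

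Probe sets were also counted without choosing 1 per gene. The 118 probe sets included the 52 brightest ones used above, so their count is not a separate check of the calls. Over all 118 probe sets, 39 rose and 0 fell at an adjusted p under 0.05 over probe sets in limma, where 9.58% of all probe sets rose and 8.72% fell; 4 of the 118 were lower at an unadjusted p under 0.05. Of the 23 genes that rose, 15 had several probe sets, and in 10 of these at least 2 probe sets rose. The brightest probe set was among those counted, and the share over all genes was not computed. All probe sets rose for Eif3i (1.06 and 1.43) and Eif5a (0.72 and 0.46). Those of Eif3c differed by 1.16, 1.23, 1.39 and 0.35, of which the last did not pass. The remaining probe sets of Eif4ebp1 differed by 1.44 (SE 0.08) and 0.03.

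Other genes rested on a single probe set. The remaining probe sets of Eif4a1 differed by 0.43 and -0.06 and did not pass, and Eif4a2 has only 1 probe set. For Eif4e2 the others differed by 0.09, 0.03 and -0.19, for Eif4e3 by 0.03 and for Eif2b2 by 0.21 and 0.04. The 5 others of Eif2s2 rose by 0.11 to 0.82 without passing. A further 8 of the genes called higher have only 1 probe set. Conversely, a probe set rose in Eif3e (1.49), Eif5 (0.85), Eif5b (0.65) and Eif2s3x (0.44), although the brightest probe sets of those genes did not pass. Eif4g2, which showed no difference in its brightest probe set, had changes of -0.05, -0.20 and -0.42 in the others, none of which passed.

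**Figure D4:**
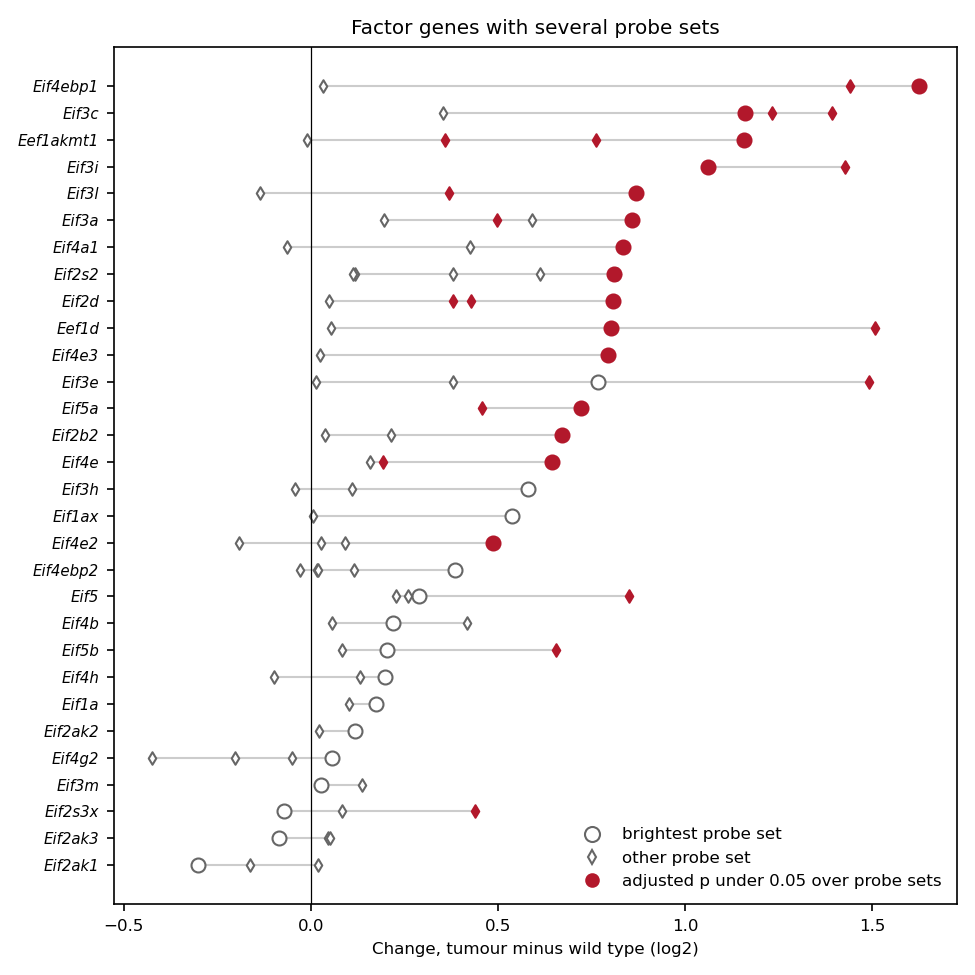
Log2 change, tumour minus wild type, of every probe set of the 30 factor genes that have several, with large circles for the brightest probe set and filled symbols for an adjusted p under 0.05 in limma over all probe sets. The probe sets of Eif3i and Eif5a are all filled, while those of Eif4a1, Eif4e2 and Eif2b2 are filled only for the brightest.

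Factor genes that rose together were compared in their promoters, taken from RefSeq (GRCm38.p6), in which 42 of the 52 genes had an entry. The sequence CACGTG, the E-box bound by Myc and its relatives, reads the same on both strands and was searched in 250 bases before and 50 after each start. It stood in the promoters of 11 of 42 factor genes (26.2%), and in those of 10.8% of the genes measured on the array that had an entry. It was present for 7 of 18 factor genes that rose and 4 of 23 that did not pass (Eef2, Eif1b, Eif4h and Eef1aknmt). The 18 genes had 29 promoters, 9 of them with CACGTG, and the 23 genes had 27, 4 of them with CACGTG. Counted by promoter, since a gene may have several starts, it stood in 13 of 57 (22.8%) for factor genes in 9.11% for genes measured on the array and in 7.15% of all promoters in the table. These are counts of letters and show no binding. A start base C followed by 4 bases that are each C or T was found for Eif3f and Eif2s3x alone, 2 of 42 genes, with 3.01% of all genes in the table. Eef1a1, Eef1b2, Eef2 and Eif4b, members of the oligopyrimidine list above, had an entry but no such start. The search read annotated starts only and cannot show which mRNAs carry the tract.

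Shown here are the promoters of 2 eIF3 subunits that rose and of the helicase paralogs that moved apart, chosen after their values were seen, from 250 bases before the start to 20 bases from it, 5′ to 3′. Capitals mark CACGTG and, in Eif3f, the run of 11 pyrimidines that opens the transcript. The windows are chr7:108934165-108934434, plus strand (Eif3f), chr7:28981869-28982138, minus strand (Eif3k), chr11:69672404-69672673, minus strand (Eif4a1) and chr16:23107218-23107487, plus strand (Eif4a2).
Eif3f: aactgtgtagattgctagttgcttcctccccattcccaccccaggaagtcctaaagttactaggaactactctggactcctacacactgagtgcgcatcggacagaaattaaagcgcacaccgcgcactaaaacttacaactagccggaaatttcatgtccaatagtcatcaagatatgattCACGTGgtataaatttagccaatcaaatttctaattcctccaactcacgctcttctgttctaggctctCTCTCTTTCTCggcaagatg
Eif3k: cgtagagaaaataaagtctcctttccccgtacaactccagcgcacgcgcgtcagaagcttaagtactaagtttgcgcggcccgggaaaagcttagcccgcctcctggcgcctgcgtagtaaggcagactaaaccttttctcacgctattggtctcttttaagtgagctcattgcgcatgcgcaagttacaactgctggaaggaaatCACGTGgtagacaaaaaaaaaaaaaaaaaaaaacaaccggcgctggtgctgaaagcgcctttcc
Eif4a1: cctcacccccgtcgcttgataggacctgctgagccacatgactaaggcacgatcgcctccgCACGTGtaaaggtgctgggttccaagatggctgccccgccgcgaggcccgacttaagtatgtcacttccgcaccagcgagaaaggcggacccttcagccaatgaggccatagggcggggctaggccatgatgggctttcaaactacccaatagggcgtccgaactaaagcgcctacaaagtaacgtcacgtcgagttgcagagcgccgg
Eif4a2: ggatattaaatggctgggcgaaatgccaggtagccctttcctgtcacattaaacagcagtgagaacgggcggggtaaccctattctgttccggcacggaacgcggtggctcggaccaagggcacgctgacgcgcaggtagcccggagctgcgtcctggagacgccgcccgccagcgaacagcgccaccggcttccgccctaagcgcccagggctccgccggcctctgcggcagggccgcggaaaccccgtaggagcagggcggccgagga
The E-box began 68 bases before the start in Eif3f, 44 in Eif3k and 189 in Eif4a1. Eif4a2 had none in this window. In the longer window searched, 10.8% of measured genes with an entry and 7 of 18 factor genes that rose had one. A link between the E-box and the direction of change was not tested.

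Genes around the factors were taken as fixed lists from general knowledge. Of 15 genes of termination, ribosome recycling and the poly(A) tail, 5 rose, 0 fell (1 at an unadjusted p under 0.05 in limma) and 10 did not pass, with a median of 0.17. Over all genes 11.3% rose and 21.7% were called in either direction. The poly(A)-binding proteins Pabpc1 and Pabpc4, which bridge the tail to eIF4G, rose by 0.92 (SE 0.13) and 1.06 (SE 0.23). The recycling factor Denr rose by 0.53 (SE 0.06) and Paip2, an inhibitor of poly(A)-binding protein, by 0.52 (SE 0.11). There were 0 calls without tumour 16, wild type 36 or wild type 62, 2 without tumour 18 and 4 without tumour 2.

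Among the kinases and regulators upstream of eIF4E, 12 genes of the mTORC1 and MNK list were measured. Of these 2 rose, 1 fell and 9 did not pass, so that 3 of 12 were called where 21.7% of all genes were, and the median change was -0.00375. Ddit4, an inhibitor of mTORC1 that responds to stress, had 8.39, 9.05 and 8.45 in tumours and 6.57 and 6.55 in wild type, a rise of 2.07 (SE 0.23, adjusted p = 0.0112 in limma). Mknk2, a kinase that phosphorylates eIF4E, rose by 0.58 (SE 0.05), and Rheb, the GTPase that activates mTORC1, fell by 0.57 (SE 0.10). Mtor itself differed by -0.04 (SE 0.06, adjusted p = 0.728 in limma). The count of rises was 3 without tumour 2, 1 without wild type 36 and 0 without wild type 62, and 1 fall was called without wild type 36 and 0 in the other 4 fits.

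The list of the stress response downstream of eIF2 phosphorylation had 13 measured genes. Of these 2 rose, 1 fell and 10 did not pass, so that 3 of 13 were called where 21.7% of all genes were, and the median change was -0.01. Psat1, an Atf4 target of serine synthesis, rose by 2.53 (SE 0.38) and Vldlr, a lipoprotein receptor, by 1.61 (SE 0.20). Ppp1r15b, which directs a phosphatase to eIF2, fell by 1.17 (SE 0.23). Atf4, the transcription factor at the centre of the response, had overlapping groups and differed by 0.09 (SE 0.08, adjusted p = 0.499 in limma), and its targets that did not pass went both ways. Asns, which makes asparagine, was higher in every tumour (1.16, SE 0.29, adjusted p = 0.0599 in limma), as was Chac1 (0.10, SE 0.04), while Ddit3 and Trib3 were lower in every tumour (-0.25 and -0.42). Of the 2 rises, 0 were called without tumour 16, wild type 36 or wild type 62, 1 without tumour 18 and 2 without tumour 2. A fall was called without tumour 2 and in 0 of the other 4 fits.

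Mitochondrial translation factors and the enzymes that modify eIF5A and eEF2 gave 1 call each. This was 1 of 5 and 1 of 7 genes, where 21.7% of all genes were called. Of 5 mitochondrial factors Mrrf, which recycles mitochondrial ribosomes, rose by 0.41 (SE 0.09) and 4 did not pass, with a median of -0.02. Of 7 hypusine and diphthamide enzymes Dph5, an enzyme of diphthamide synthesis on eEF2, rose by 0.84 (SE 0.11) and 6 did not pass. The hypusine enzymes Dohh and Dhps differed by 0.19 (adjusted p = 0.0512 in limma) and 0.09 (adjusted p = 0.757 in limma). The call of Mrrf was lost without any single array, and 1 call in the enzyme list was made without tumour 2 or wild type 36 and 0 without the others.

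Other parts of the translation machinery stood higher as well. Of 48 cytosolic ribosomal protein genes 36 rose and 0 fell (0 also at an unadjusted p under 0.05 in limma), with a median change of 0.71, and of 18 cytosolic aminoacyl-tRNA synthetase genes 11 rose and 0 fell (0 likewise), with a median of 0.60. The factor genes had 44.2% higher and a median of 0.41, and 11.3% of all genes were higher. These shares were set side by side and their difference was not tested.

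**Figure D5:**
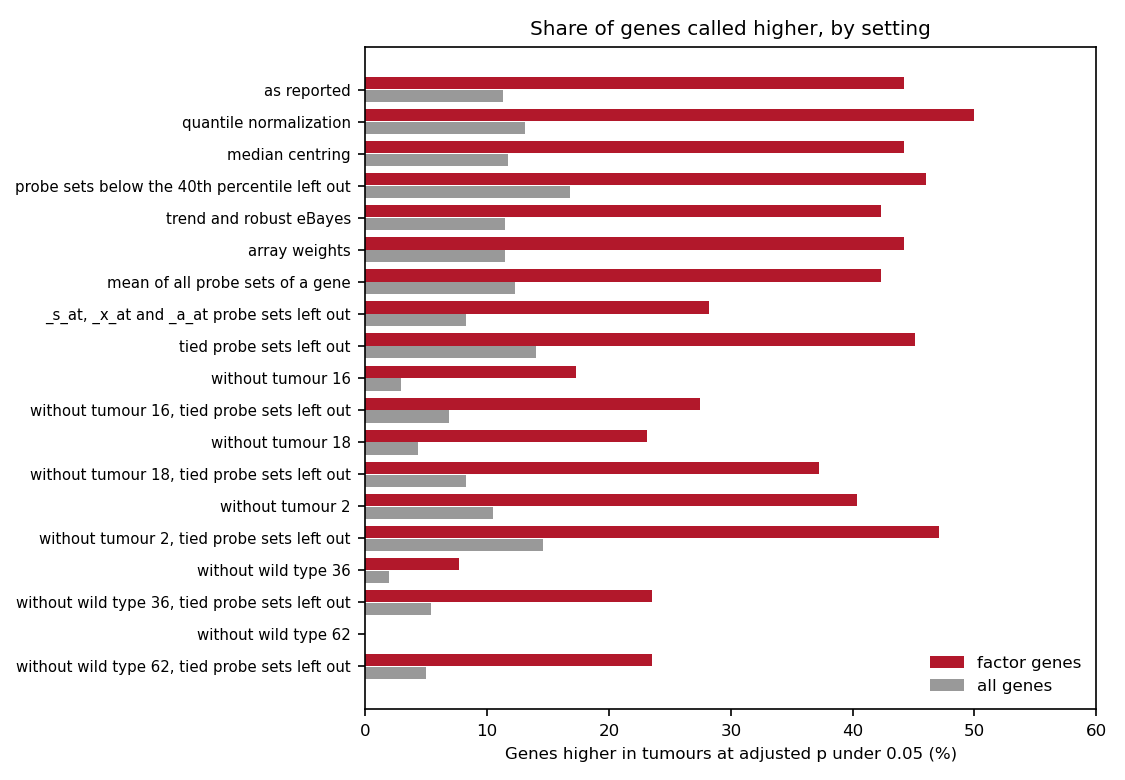
Share of genes (percent) called higher in tumours at an adjusted p under 0.05 in limma, for the factor genes (red) and for all genes (grey), under each setting tried. The share of factor genes is above that of all genes in every setting except the one without wild type 62, in which both are 0.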

How the data were processed

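Expression was measured on 5 Affymetrix arrays, 3 of tumour and 2 of wild-type epithelium, grouped by the titles in the labels. The authors deposited log2 values for 22690 probe sets. Per the submitters' processing notes the R package affy was used; how probe sets were summarised and normalized is not given in the sources used here. No further normalization was applied. After 64 control probe sets were set aside, 22626 remained, of which 20380 had 1 gene symbol in GEO's platform annotation, 691 several and 1555 none. A gene took its values from the probe set of highest mean, and 6 probe sets that list a factor symbol beside other symbols were not used. Symbols of all 52 factor genes equalled those of RefSeq by Entrez identifier.

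The tests used lmFit and eBayes of limma 3.58.1 (R 4.3.3) and were two-sided. P-values were adjusted by Benjamini-Hochberg over the 12393 genes, and 0.05 was the threshold. Residual degrees of freedom were 3, with 1.23 prior ones. Factor genes, lists, the naming rule and tests were chosen with earlier results of these data known. By that rule any factor gene may be named, values on every array are given for a fixed set and the 10 largest called changes each way, and each surrounding list gives up to 4 called genes with the largest change, plus the largest against its majority. Atf4, Asns, Chac1, Ddit3, Trib3, Mtor, Dohh and Dhps are named outside it, after their values were seen. Of the fixed set, Eif2s1, Eif2b3, Eif4g1 and Eif5a2 were not analysed here. On simulated data for 3 against 2 arrays (10 runs of 12393 genes, 200 changed), limma found 72.3% of changes of 2-fold and 92.6% of those of 4-fold. Of the unchanged genes 8.5 per run were called. The simulated noise was independent between genes and held no ties, while 21.7% of genes were called in the data. These rates may therefore not hold for the data. Alternatives were quantile normalization, median centring, a filter at the 40th percentile, trend and robust eBayes, array weights, the mean of all probe sets, leaving out probe sets that can match several transcripts (names ending in _s_at, _x_at or _a_at), tied values or single arrays, and a 2-fold minimum. A fit without a wild-type array assumes that the lone array varies like the others. The number of arrays limits the precision.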

Additional observations from a re-analysis of the deposited data

How the results depend on the processing

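The count of 23 factor genes called higher lay between 22 and 26 under quantile normalization, median centring, the filter at the 40th percentile, trend and robust eBayes, array weights, the mean of all probe sets and without tied probe sets. It was 5 with a 2-fold minimum. With probe sets that can match several transcripts left out it was 11 of 39, where 8.26% of all genes were called higher; 16 of the 23 genes were then measured and 10 kept their call. It ranged from 0 to 21 without single arrays; with ties also out it was 14 without tumour 16 and 12 without either wild type. The count of lower factor genes was 2 (Eif4a2 and Eif2s3y) under quantile normalization, median centring, the 40th percentile filter, trend and robust eBayes, the mean of all probe sets and without tied probe sets, 0 without probe sets of several transcripts, and 0 to 2 without single arrays, where the 2, without wild type 36, were Eif2s3y and Eif6. With array weights the 1 lower gene was Eif2s3y in place of Eif4a2. For eIF3 subunits it was 3 higher at 2-fold, 0 to 8 without single arrays and 4 to 9 with ties also out. Over all genes, 428 were higher and 557 lower at 2-fold, 870 were higher without probe sets of several transcripts, and without single arrays 0 to 1295 were higher and 0 to 1085 lower. With ties also out there were 781 higher and 726 lower without tumour 16, 617 higher without wild type 36, and 567 higher and 616 lower without wild type 62. Among genes that did not pass, the sign changed for several. Eif3m had -0.16 without wild type 36, and Eif4enif1 had 0.03 and Eef2kmt -0.0065 without wild type 62. Eef1a2 changed to -0.0164 under quantile normalization, to -0.0241 with median centring, and lay between 0 (-8.88e-16 in rounding, without tumour 18) and 0.0141 without single arrays. Eif2ak3 changed to 0.00395 using the mean of a gene's probe sets and to 0.0303 without wild type 62, with ties in or out, and Eif4g2 to -0.16 with the mean and -0.20 without probe sets of several transcripts. Eef1akmt1, called higher, had -0.0107 in the last setting, which uses another of its probe sets; the cause was not tested beyond that.

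Among the lists around the factors, the mTORC1 and MNK list had 1 higher and 0 lower at 2-fold, 1 higher without probe sets of several transcripts, and 0 to 3 higher and 0 to 1 lower without single arrays. The eIF2 stress list had 4 higher under quantile normalization and for mean probe sets, 0 higher and 0 lower without probe sets of several transcripts, 2 lower under quantile normalization and median centring, and 0 to 3 higher and 0 to 2 lower without single arrays. The termination list had 1 higher at 2-fold, 3 without probe sets of several transcripts and 0 to 5 without single arrays. The mitochondrial list had 0 at 2-fold, 0 with trend and robust eBayes and 0 to 1 without single arrays, and the hypusine and diphthamide list 0 at 2-fold, 2 with array weights and 0 to 2 without single arrays. The cause of these differences was not tested, except that the fits use fewer arrays or probe sets. For these lists the ranges without single arrays also cover the fits with tied probe sets left out. No paired analysis was possible because the numbers in the titles differ between the groups.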
